A study of Mus musculus with 8 samples.

Results

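The cytokines that thymic epithelial cells (TECs) supply to developing T cells were followed through their 5 genes, *Il7*, *Kitl*, *Flt3l*, *Il15* and *Tslp*, in bulk RNA sequencing data of 8 libraries. The members were given by gene symbol, and all 5 were found among the 56923 genes of the count files and passed the filter on low counts with which 14504 genes were tested. The TECs came from wild-type mice with no treatment. EpCAM+ cells, sorted from embryonic thymi by that epithelial surface protein and lysed directly (*in vivo* TECs), were compared with cultured TECs. These were grown for 3 days as a confluent monolayer on laminin (2D-cultured TECs) or in Matrigel as organoids, collected at day 3 (D3) or day 7 (D7). Monolayers and organoids were both kept in medium with FGF7. The labels give each of these 4 groups 2 biological replicates.

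IL-7, stem cell factor (the product of *Kitl*) and FLT3 ligand act on early T-cell progenitors through receptors that signal by JAK kinases and STAT factors or by a receptor tyrosine kinase. IL-7 is needed for the survival and growth of thymocytes, IL-15 supports natural killer and innate-like T cells and is shown to neighbouring cells on its receptor IL-15Rα, and TSLP is an epithelial cytokine related to IL-7 that shares part of its receptor. Stem cell factor and FLT3 ligand are made as membrane proteins that proteases can release from the cell surface.

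In the mouse build GRCm39, each gene lies on a chromosome of its own. *Il7* (ENSMUSG00000040329) spans chr3:7635054-7678825 on the minus strand, *Kitl* (ENSMUSG00000019966) chr10:99851492-99936278 on the plus strand and *Flt3l* (ENSMUSG00000110206) chr7:44779212-44785875 on the minus strand. *Il15* (ENSMUSG00000031712) spans chr8:83054226-83129874 on the minus strand, and the identifier of *Tslp* is ENSMUSG00000024379. QuantSeq 3′ libraries read polyadenylated transcripts from their ends, so the values below count mainly transcript ends in the last exon and do not tell the membrane-bound and soluble isoforms of *Kitl* apart.

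Promoter sequences were available only for *Kitl* and *Flt3l*, 2 of the 5 genes, and are shown for that reason. They are the 250 bases before the RefSeq start in GRCm38.p6, a different build from that of the counts, written 5′ to 3′ in the direction of transcription, with capitals marking the motif matches. The *Kitl* sequence is chr10:100015571-100015820 on the plus strand and the *Flt3l* sequence is chr7:45136433-45136682 on the minus strand.
Kitl: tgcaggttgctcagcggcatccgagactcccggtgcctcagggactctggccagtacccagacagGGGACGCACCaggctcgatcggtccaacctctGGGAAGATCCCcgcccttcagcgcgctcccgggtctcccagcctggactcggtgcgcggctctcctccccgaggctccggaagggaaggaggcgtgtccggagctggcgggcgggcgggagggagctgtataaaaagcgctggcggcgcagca
Flt3l: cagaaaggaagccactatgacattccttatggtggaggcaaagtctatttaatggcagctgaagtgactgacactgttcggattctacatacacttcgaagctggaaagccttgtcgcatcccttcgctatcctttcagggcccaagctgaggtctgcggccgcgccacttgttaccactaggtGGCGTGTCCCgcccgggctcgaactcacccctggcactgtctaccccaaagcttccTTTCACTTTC
With GC contents of 69.2% and 53.6% and 23 and 11 CpG dinucleotides, the sequences of *Kitl* and *Flt3l* differed in composition, beside a median GC content of 52.4% over 32851 promoters. Motif letters were searched on both strands in windows of 300 bases that also held 50 bases after the start. The core of the FOXN1 site, GACGC, was found in the *Kitl* window, at position -183 from the start, and not in that of *Flt3l*, and 27.2% of all windows held it. The letters of an NF-kB site (GGGA and CC with any 4 bases between them) were found in both windows, as in 20.7% of all windows. In *Kitl* they occurred at -185, where they contain the FOXN1 core, and on opposite strands at -153 and -152, where the matches overlap. The letters of an interferon-stimulated response element (GAAA repeated with any 2 bases between) were found in *Flt3l* and not in *Kitl*, and 3.44% of all windows held them. In *Flt3l* they lay at -10, on the strand opposite to the one printed. Neither window held a STAT site (TTCNNNGAA, in 8.3% of windows) or an AP-1 site (TGANTCA, in 7.81%). These matches describe the letters of the windows only, and a link to the levels of the genes was not tested.

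Total counts were between 5084715 and 7612532 per library. Levels are given as CPM, the count relative to a library size scaled by the TMM method, and differences as log2 fold changes of the first-named group over the second from a single fit of the 8 libraries (edgeR's quasi-likelihood test), with p-values adjusted by Benjamini-Hochberg over the 14504 genes and a threshold of 0.05. Replicates differed by more than sampling noise, and a two-sided exact permutation test of 2 libraries against 2 reaches p = 0.333 at the lowest, so the test rests on a spread estimated across genes and groups. All 8 TEC markers were detected in every group. Their summed CPM was between 4361 and 4884 *in vivo*, 5546 and 6260 in 2D, 2337 and 2604 at D3 and 2432 and 2438 at D7. The markers did not move together. *Epcam* was higher in all cultures than *in vivo*, while *Krt8* was higher in 2D and lower in organoids. Summed CPM of 10 thymocyte markers was between 313 and 710 *in vivo*, led by *Rag1*, and between 3.72 and 13.7 in the cultures, where *Ptcra* was at 0. Mesenchymal markers summed to between 22.2 and 81.3 CPM over all libraries, highest in D7 organoids (73.6 to 81.3), and endothelial, erythroid and myeloid markers to at most 5.22, 11.99 and 12.4 CPM. Of the endothelial markers, *Cdh5* was at 0 in all libraries and *Pecam1* had 3.66 and 5.22 CPM *in vivo*. Of the mesenchymal markers, *Pdgfra* was at 0 *in vivo*, while *Pdgfrb* had 8.18 and 4.23 CPM there, *Col1a1* 8.35 and 4.09 and *Dcn* 18.3 and 23.1. Of the myeloid markers, *Csf1r* was at 0 *in vivo* and *Lyz2* had 3.13 and 2.40 CPM there. Summed CPM of 9 cortical TEC markers was between 8767 and 9005 *in vivo*, 670 and 773 in 2D, 447 and 465 in D3 organoids and 1151 and 1226 in D7 organoids. That of 8 medullary TEC markers was between 352 and 363 *in vivo*, 3218 and 3363 in 2D, 312 and 408 at D3 and 194 and 198 at D7. The 2D sum was led by *Cldn4*, and *Krt5*, *Krt14*, *Cldn3* and *Ccl21a* were also highest in 2D, while *Tnfrsf11a* was highest *in vivo*. *Aire* and *Fezf2* were at 0 in both 2D and D3 organoids. At D7 *Fezf2* was at 0 and *Aire* had 0.124 and 0 CPM, against 5.22 and 10.2 CPM of *Aire* *in vivo*. In such bulk libraries, fewer cells of a type and less RNA per cell cannot be told apart.

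The 5 genes took different courses in culture. *Il7* was highest *in vivo*, lowest in 2D and in between in organoids, whereas *Kitl* was 11.6-fold lower in 2D than *in vivo* and in both D3 and D7 organoids was 108% of its *in vivo* mean. *Flt3l* and *Il15* were low in all cultures, and *Tslp* was the only gene of the 5 that was called higher in a culture than *in vivo*. Against *in vivo* TECs, 2D-cultured TECs differed in all 5 genes (4 lower and 1 higher in 2D), D3 organoids in 4 (3 lower, 1 higher) and D7 organoids in 3 (all lower). The share of all tested genes called was 41.6% for 2D (21.7% lower and 19.9% higher in 2D), 28.2% for D3 organoids (14% lower, 14.1% higher) and 34.8% for D7 organoids (16.8% lower, 18% higher). Compared with 2D-cultured TECs, D3 organoids were higher in 2 of the 5 genes and D7 organoids in 3, and none was lower. Of all genes, 38.3% were called for D3 organoids (19.3% higher, 19.1% lower) and 45.5% for D7 organoids (24.4% higher, 21.1% lower). D7 organoids were higher than D3 organoids in 1 of the 5 genes, where 20.8% of all genes were called (10.9% higher, 9.91% lower). Groups of 2 libraries often do not overlap by themselves. The libraries of *in vivo* TECs did not overlap those of any culture for any of the 5 genes, as for 69.6% (2D), 61.6% (D3) and 69.9% (D7) of all genes, and the other comparisons had 4 of 5 genes without overlap, as for 69.2% (D3 and 2D), 75.8% (D7 and 2D) and 64.7% (D7 and D3) of all genes.

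**Figure D1:**
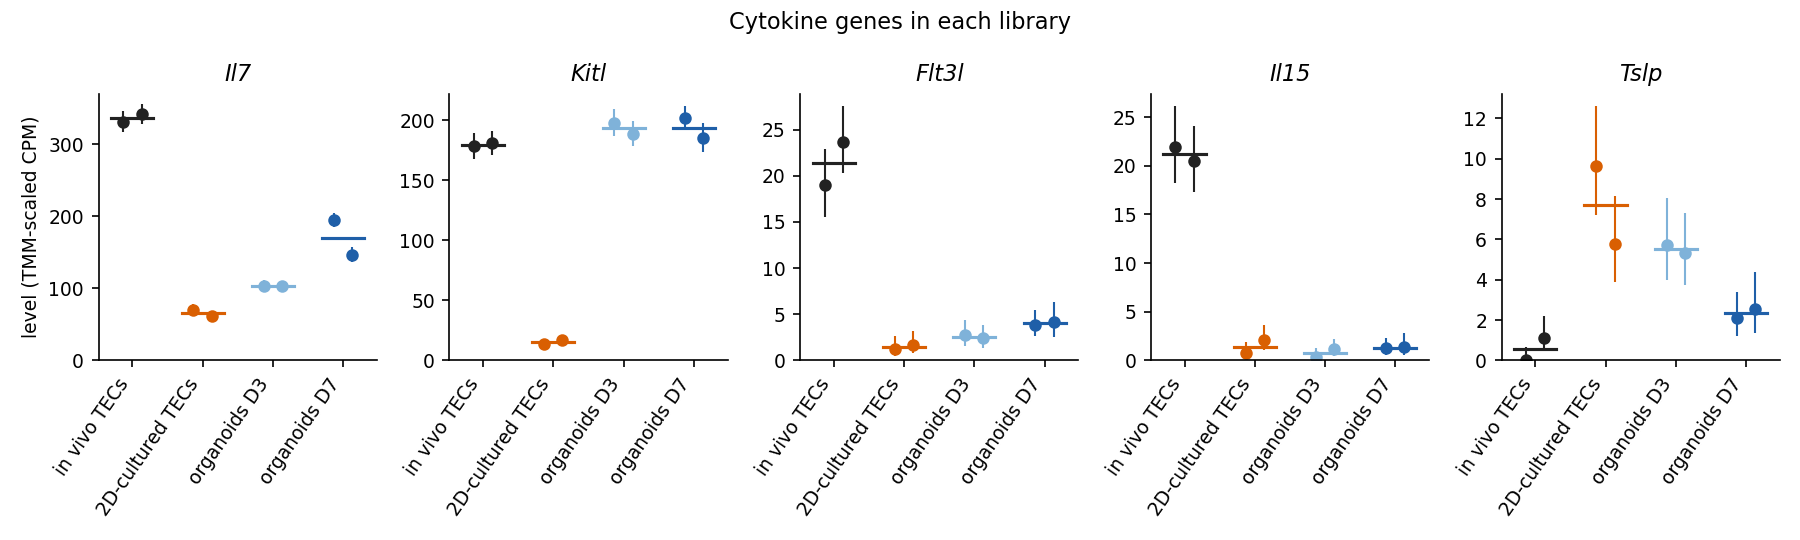
Level of each cytokine gene in every library, in TMM-scaled CPM on axes that start at 0. Points are libraries with exact 95% Poisson intervals of their counts, and horizontal lines are group means. *Kitl* in organoids lies at the *in vivo* level of about 180 CPM, while *Il7* reaches 194 and 147 CPM in D7 organoids against 331 and 342 *in vivo*.

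The *in vivo* libraries also held thymocyte transcripts, and their part in the higher *in vivo* levels below was not tested. Between the 2 *in vivo* replicates, first over second, the ratio of CPM was 2.27 for the sum of the thymocyte markers (710 against 313 CPM), 2.17 for the IL-7 receptor gene *Il7r*, 0.969 for *Il7*, 0.986 for *Kitl*, 0.801 for *Flt3l* and 1.07 for *Il15*. It was 1.64 for the IL-15 receptor gene *Il15ra* and 1.15 for the common gamma chain gene *Il2rg*. These ratios each compare 1 library with 1 other and carry no test.

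Among the cytokines, IL-7 is the main growth factor of thymocytes. *Il7* was counted 1903 and 2423 times *in vivo*, 387 and 335 times in 2D, 612 and 738 times in D3 organoids and 1566 and 741 times in D7 organoids. These counts correspond to 331 and 342 CPM *in vivo*, 70.4 and 62.2 in 2D, 103 and 103 at D3 and 194 and 147 at D7. The order from *in vivo* TECs through D7 and D3 organoids to 2D-cultured TECs held with no overlap between neighbouring groups, and each step passed the test. Relative to the *in vivo* mean, the mean was 50.6% at D7, 30.7% at D3 and 19.7% in 2D. The step from D7 to D3 organoids was a log2 fold change of 0.72 (SE 0.16, adjusted p = 0.0049), and that from D3 organoids to 2D was 0.64 (SE 0.17, adjusted p = 0.0062). Both calls were lost when a single library was left out. Without D7 replicate 1 the first was 0.51 (adjusted p = 0.091), and without 2D replicate 2 the second was 0.55 (adjusted p = 0.069). *Il7* is overlapped by the lncRNA gene *Gm16685* on the opposite strand, with 662 bases of shared exon, none of them in the last exon of *Il7*, and whether counting used the strand is not given in the sources used here. *Gm16685* itself had 40.8 CPM *in vivo*, 8.65 in 2D, 8.52 at D3 and 23.9 at D7 (means, n = 2), so that it shared the step from D3 to D7 organoids (log2 fold change 1.47, SE 0.30, adjusted p = 0.0025), while the value for D3 against 2D was 0.00 (SE 0.33, adjusted p = 0.998).

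*Kitl* encodes stem cell factor, the ligand of the receptor tyrosine kinase KIT on early progenitors. It was counted 1024 and 1282 times *in vivo*, 77 and 91 times in 2D, 1169 and 1348 times in D3 organoids and 1628 and 936 times in D7 organoids. In CPM these were 178 and 181 *in vivo*, 14.0 and 16.9 in 2D, 198 and 188 at D3 and 202 and 185 at D7. The 2D libraries lay far below the other 6, and the *in vivo* libraries lay just below those of both organoid groups with no overlap. *Kitl* in 2D was 8.60% of the *in vivo* mean, with log2 fold changes of 3.54 for *in vivo* TECs over 2D (SE 0.18, adjusted p = 8.6e-11), 3.64 for D3 organoids over 2D (SE 0.18, adjusted p = 1.2e-10) and 3.65 for D7 organoids over 2D (SE 0.18, adjusted p = 7.7e-11). Of the 14504 genes, 5.14% had a difference at least as large in the same direction between *in vivo* and 2D-cultured TECs. D3 organoids, which had been in culture for as long as the 2D cells, were 12.5-fold higher than these in mean CPM. The difference between organoids and *in vivo* TECs did not pass the test (adjusted p = 0.66 for D3 and 0.62 for D7), and the 95% interval of the ratio of organoids to *in vivo* TECs ran from 0.861 to 1.34 at D3 and from 0.864 to 1.35 at D7. Differences within these limits cannot be told from none here. D7 and D3 organoids had a log2 fold change of 0.00 (SE 0.15, adjusted p = 0.99) with an interval from -0.31 to 0.32. No annotated gene overlaps *Kitl*.

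FLT3 ligand supports the earliest lymphoid progenitors and dendritic cells. *Flt3l* was counted 109 and 168 times *in vivo*, 7 and 9 times in 2D, 16 and 17 times in D3 organoids and 31 and 21 times in D7 organoids. The levels were 19.0 and 23.7 CPM *in vivo*, 1.27 and 1.67 in 2D, 2.70 and 2.38 at D3 and 3.85 and 4.15 at D7. All 6 culture libraries were thus far below both *in vivo* libraries. The log2 fold change of *in vivo* TECs was 3.84 over 2D-cultured TECs (SE 0.46, adjusted p = 2.9e-06), 3.07 over D3 organoids (SE 0.42, adjusted p = 2.3e-05) and 2.42 over D7 organoids (SE 0.40, adjusted p = 0.00016). Among the cultures the order was D7, D3 and 2D, as for *Il7*, and the differences between neighbours in it did not pass the test (adjusted p = 0.33 for D7 and D3, 0.25 for D3 and 2D). D7 organoids were higher than 2D-cultured TECs by 1.43 (SE 0.49, adjusted p = 0.025), a call on 16 counts in 2D that was lost with limma-voom (1.38, adjusted p = 0.12), with DESeq2's Wald test (1.40, adjusted p = 0.0501), in a fit of the 4 libraries alone (1.38, adjusted p = 0.070) and when any of these 4 libraries was left out. The protein-coding gene model *Gm45713* shares 856 bases of exon with *Flt3l* on the same strand and had no count. On the opposite strand the lncRNA genes *Gm72106* and *Gm72133* overlap *Flt3l*, and *Gm72133* shares 207 bases of exon with it. Neither of these lncRNA genes is among the counted genes.

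IL-15 is presented on IL-15Rα by the cell that makes it. *Il15* was counted 126 and 145 times *in vivo*, 4 and 11 times in 2D, 2 and 8 times in D3 organoids and 10 and 7 times in D7 organoids. Its levels were 21.9 and 20.5 CPM *in vivo*, 0.727 and 2.04 in 2D, 0.338 and 1.12 at D3 and 1.24 and 1.38 at D7. Organoids did not stand between *in vivo* and 2D-cultured TECs here, since the 2D libraries spanned those of D7 organoids. For *in vivo* TECs the log2 fold change was 3.92 over 2D-cultured TECs (SE 0.56, adjusted p = 2.4e-05), 4.78 over D3 organoids (SE 0.60, adjusted p = 9.1e-06) and 4.003 over D7 organoids (SE 0.56, adjusted p = 2.9e-05). Their sizes are loose, at 4.82 without 2D replicate 2 and 5.82 without D3 replicate 2, which leaves 2 counts at D3. Among the cultures no difference passed the test (adjusted p between 0.37 and 0.93), and the 95% interval for D7 organoids against 2D-cultured TECs ran from -1.49 to 1.32 on the log2 scale, so that differences below about that size were not detectable at this depth. The lncRNA gene *9530004M14Rik* overlaps the start of *Il15* on the opposite strand, outside its last exon, and was counted 22 and 24 times *in vivo* and at most 3 times in any culture library.

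TSLP is an alarm cytokine of epithelial cells. *Tslp* was counted 0 and 8 times *in vivo*, 53 and 31 times in 2D, 34 and 38 times in D3 organoids and 17 and 13 times in D7 organoids. The levels were 0 and 1.13 CPM *in vivo*, 9.64 and 5.75 in 2D, 5.75 and 5.31 at D3 and 2.11 and 2.57 at D7, and a count of 0 in *in vivo* replicate 1 allows up to 0.522 CPM by the limit of 3 counts (the two-sided Poisson interval drawn in the plot of levels reaches 0.642 CPM). By group means the order was the reverse of that of *Il7*, with 2D-cultured TECs highest and *in vivo* TECs lowest. Differences between neighbours in that order did not pass the test (adjusted p = 0.61 for 2D and D3, 0.24 for D3 and D7). *In vivo* TECs were lower than 2D-cultured TECs (log2 fold change -3.63, SE 0.82, adjusted p = 0.0018) and than D3 organoids (-3.15, SE 0.82, adjusted p = 0.0079). Both sizes were loose, at -2.75 and -2.27 without *in vivo* replicate 1. Without *in vivo* replicate 2 they were -8.56 and -8.09, fitted values against a count of 0 and thus no bound. Against D7 organoids the value was -1.91 (SE 0.86, adjusted p = 0.097), which passed the threshold without *in vivo* replicate 2 (-6.83, adjusted p = 0.0065, a fitted value against a count of 0 and thus no bound) and with no filter on low counts (-1.94, adjusted p = 0.0498). D7 organoids and 2D-cultured TECs differed by -1.72 (SE 0.70, adjusted p = 0.056), just short of the threshold, and by -1.69 with limma-voom (adjusted p = 0.024).

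**Figure D2:**
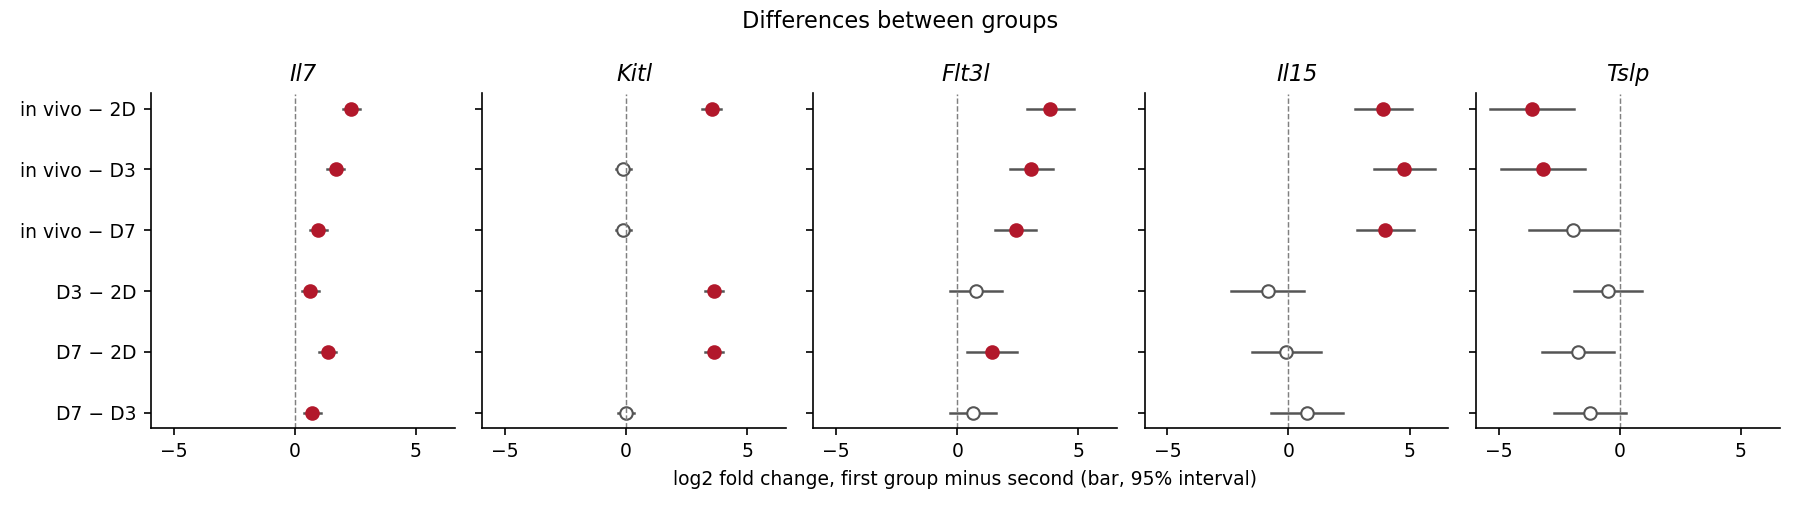
Log2 fold change of each cytokine gene in the 6 comparisons, first group minus second, with 95% intervals from edgeR's quasi-likelihood fit. Filled points passed an adjusted p of 0.05 and open points did not. *Kitl* lies near 0 in both comparisons of *in vivo* TECs with organoids and near 3.6 in all 3 comparisons with 2D-cultured TECs, and *Tslp* lies left of 0 throughout.

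Because *Il7* and *Kitl* moved apart, their balance within a library changed, and this ratio does not depend on how library sizes are scaled. For each count of *Il7*, *Kitl* had 0.538 and 0.529 counts *in vivo*, 0.199 and 0.272 in 2D, 1.91 and 1.83 in D3 organoids and 1.04 and 1.26 in D7 organoids. The 2 *in vivo* libraries were nearly alike, the 2D libraries lay below them and all 4 organoid libraries above them, with D7 organoids closer to the *in vivo* ratio than D3 organoids. On the log2 scale the ratio averaged -0.91 ± 0.02 *in vivo*, -2.10 ± 0.32 in 2D, 0.90 ± 0.05 at D3 and 0.20 ± 0.20 at D7 (SD, n = 2). *Kitl* took 32.4% and 31.8% of the counts of the 5 genes *in vivo*, 14.6% and 19.1% in 2D, 63.8% and 62.7% at D3 and 50.1% and 54.5% at D7. *Tslp*, at most 0.199% of these counts *in vivo*, took 10.04% and 6.50% in 2D. The summed level of the 5 genes was 550.4 and 568 CPM *in vivo*, 96.0 and 88.5 in 2D, 309.8 and 300.4 at D3 and 403 and 339.7 at D7, so that the organoids held more cytokine transcript ends than the 2D cultures and fewer than *in vivo* TECs. No test was made on ratios or sums.

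**Figure D3:**
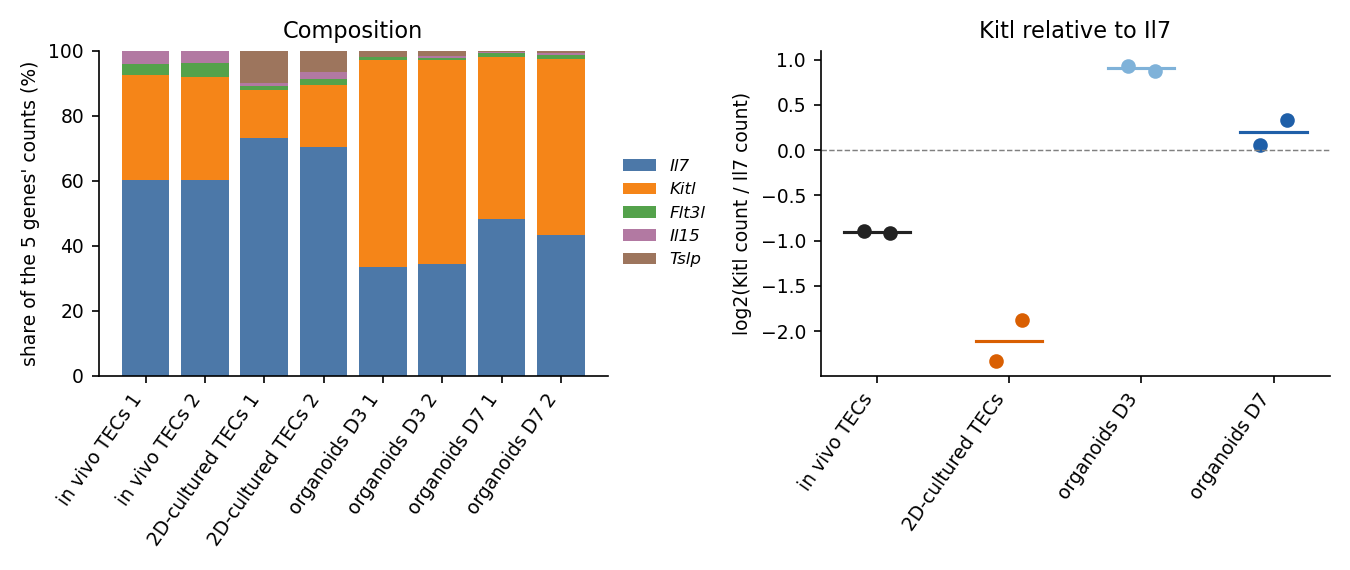
Left, share of each gene in the counts of the 5 cytokine genes, in percent, for each library. Right, log2 ratio of the *Kitl* count to the *Il7* count in each library, with lines at the group means. Organoids lie above 0 (0.90 at D3 and 0.20 at D7) and both other groups below it (-0.91 *in vivo* and -2.10 in 2D).

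The cytokine receptors were counted to see which ligands had receptor transcripts in the same libraries, which does not show that a ligand reaches a receptor. Of 7 genes, only *Crlf2*, *Kit* and *Il15ra* passed the filter on low counts. *Il15ra*, which presents IL-15, had 48.4 and 29.5 CPM *in vivo* and between 2.55 and 5.41 in the culture libraries, and *in vivo* TECs were higher than 2D-cultured TECs (log2 fold change 3.91, adjusted p = 5.1e-07), D3 organoids (3.13, adjusted p = 4.8e-06) and D7 organoids (3.35, adjusted p = 2.8e-06). Like *Il15*, it was called lower in all 3 cultures. *Kit*, the receptor of stem cell factor, had 11.5 and 10.2 CPM *in vivo*, 0 and 0.743 in 2D, 2.53 and 1.40 at D3 and 11.9 and 7.91 at D7. *Kit* was higher in D7 than in D3 organoids (2.35, adjusted p = 0.0084), a call lost without D3 replicate 2 (1.90, adjusted p = 0.087) and without D7 replicate 1 (2.01, adjusted p = 0.094). *Crlf2*, the TSLP receptor chain, had between 7.94 and 19.97 CPM in all 8 libraries and was lower *in vivo* than in D7 organoids (-1.21, adjusted p = 0.0085), a call lost without D7 replicate 2 (-1.13, adjusted p = 0.062). *Il7r* had 25.1 and 11.6 CPM *in vivo* and at most 0.186 in any culture library, and *Il2rg*, the common gamma chain, 6.96 and 6.06 against at most 0.280. *Il2rb* had at most 0.186 CPM, and *Flt3*, the receptor of FLT3 ligand, had no count in any library. By the limit of 3 counts, a count of 0 allows up to 0.372 CPM in the deepest single library and up to 0.593 CPM in the shallowest.

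Other cytokines of blood cells were mostly below the filter on low counts, and most calls against *in vivo* TECs were for higher levels in culture. Of 36 genes 7 passed the filter. The filter asks for 1 CPM in 3 or more libraries, so a gene seen in only 1 group of 2 libraries could not pass. Genes seen only *in vivo* could therefore not be counted as lower in a culture. Against *in vivo* TECs, 5 were higher and none lower in 2D (median log2 fold change -2.52, against 0.06 for all genes tested), 2 higher and none lower in D3 organoids (median -0.64, against 0.01) and 2 higher and 1 lower in D7 organoids (median -0.85, against -0.01). For comparison, 21.7% and 19.9% (2D), 14% and 14.1% (D3) and 16.8% and 18% (D7) of all genes were called higher and lower *in vivo*. The call on *Csf1* for D3 organoids (-0.77, adjusted p = 0.0492), 1 of the 2 there, was lost in 10 alternatives, among them limma-voom (adjusted p = 0.068) and the fit without *in vivo* replicate 1 (-0.48, adjusted p = 0.29). *Il33*, an epithelial alarmin of the IL-1 family, had 1.57 and 2.96 CPM *in vivo*, 56.6 and 53.1 in 2D, 202 and 178 at D3 and 166 and 143 at D7. It was the reverse of *Il15* in that all 6 culture libraries were high, with a log2 fold change of -6.04 for *in vivo* TECs over D7 organoids (adjusted p = 2.7e-11). *Il34*, a ligand of the macrophage receptor CSF1R, had 3.48 and 7.33 CPM *in vivo*, 18.2 and 19.1 in 2D, 7.94 and 9.23 at D3 and 98.3 and 125 at D7. D7 organoids were thus far above D3 organoids (3.69, adjusted p = 1.5e-07). *Csf1*, the other CSF1R ligand, was 2D-high, with 57.3 and 55.9 CPM there and between 7.48 and 19.4 in the other libraries. *Il2*, the T-cell growth factor, had between 4.90 and 18.6 CPM in all 8 libraries, and no culture passed the test against *in vivo* TECs (adjusted p between 0.12 and 0.21). *Il2* was lower in D3 organoids than in 2D (-1.25, adjusted p = 0.0071) and higher in D7 than in D3 organoids (1.24, adjusted p = 0.014). Both calls were lost without D3 replicate 1 (-0.92 and 0.91), and the call for D7 over D3 also without D7 replicate 2 (1.03). *Il34* overlaps *Vac14* on the opposite strand by 100 bases of exon.

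Downstream of the receptors, most of the JAK, STAT and SOCS genes called between *in vivo* TECs and a culture were higher *in vivo*. All 15 JAK, STAT and SOCS genes passed the filter. *In vivo* TECs were higher in 8 and lower in 2 against 2D-cultured TECs (median log2 fold change 1.34), higher in 10 and lower in 1 against D3 organoids (1.66) and higher in 8 and lower in 2 against D7 organoids (0.98), where the medians of all genes tested were 0.06, 0.01 and -0.01 and 21.7% and 19.9% (2D), 14% and 14.1% (D3) and 16.8% and 18% (D7) of all genes were called higher and lower *in vivo*. D3 organoids were higher than 2D-cultured TECs in none and lower in 6 (median -0.55, against 0.03 for all genes, of which 19.3% were called higher and 19.1% lower). D7 organoids were higher than 2D-cultured TECs in 1 and lower in 4 (median -0.28, against 0.10 for all genes, of which 24.4% were called higher and 21.1% lower). *Socs3*, an inhibitor induced by cytokine signals, had 274 and 199.9 CPM *in vivo*, 65.3 and 64.0 in 2D, 27.0 and 26.3 at D3 and 10.7 and 3.36 at D7. Each step of this order passed the test, the last with a log2 fold change of -1.83 for D7 over D3 organoids (adjusted p = 0.00068), which was -2.98 without D7 replicate 1. *Jak1* and *Stat3* had between 278.8 and 459 CPM and between 120.2 and 160.2 CPM over all libraries. *Stat3* was called in no comparison (adjusted p between 0.084 and 0.71), and *Jak1* was called in 1, being lower in D3 organoids than in 2D (-0.66, adjusted p = 0.0012).

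The genes for shedding of membrane-bound cytokines did not move together. Of 7 genes, all tested, *in vivo* TECs were higher in 2 and lower in 4 against 2D, higher in 2 and lower in 2 against D3 organoids and higher in 2 and lower in 1 against D7 organoids, with medians of -0.65, -0.15 and 0.11. Over all genes the medians were 0.06, 0.01 and -0.01, and 21.7% and 19.9% (2D), 14% and 14.1% (D3) and 16.8% and 18% (D7) of all genes were called higher and lower *in vivo*. *Mmp9*, a secreted protease known to release stem cell factor, had 92.8 and 99.6 CPM *in vivo*, 17.3 and 15.4 in 2D, 0.845 and 1.26 at D3 and 26.3 and 22.7 at D7. It was lowest in D3 organoids, and the log2 fold change of D7 over D3 organoids was 4.50 (adjusted p = 8.1e-08). *Adam17*, the main sheddase of many membrane cytokines, had between 49.6 and 68.9 CPM and was called in no comparison (adjusted p between 0.075 and 0.97). *Adam10*, a related protease, had 128 and 91.25 CPM *in vivo*, 189 and 154 in 2D, 266.5 and 227 at D3 and 126 and 119 at D7, and was lower *in vivo* than in D3 organoids (-1.18, adjusted p = 8.6e-05). *Frmd8*, which stabilizes the ADAM17 complex at the cell surface, was highest in 2D, with 84.6 and 71.7 CPM against 18.6 to 33.8 in the other libraries.

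Of 10 transcription factor genes known to act on cytokine genes, all tested, *in vivo* TECs were higher in 6 and lower in 1 against 2D, higher in 6 and lower in 2 against D3 organoids and higher in 5 and lower in 2 against D7 organoids, with medians of 0.83, 1.22 and 0.42. The medians of all genes were 0.06, 0.01 and -0.01, and 21.7% and 19.9% (2D), 14% and 14.1% (D3) and 16.8% and 18% (D7) of all genes were called higher and lower *in vivo*. *Irf1*, which drives *Il15* in several cell types, had 184 and 162 CPM *in vivo* and between 25.9 and 45.9 in the culture libraries, so that, as for *Il15*, all cultures were low (log2 fold changes of 2.29, 2.52 and 1.94 over 2D, D3 and D7, adjusted p = 3.6e-08, 2.3e-08 and 4.3e-07). *Foxn1*, the master regulator of TECs, had 224 and 274 CPM *in vivo*, 8.55 and 4.83 in 2D, 8.79 and 9.65 at D3 and 60.7 and 85.2 at D7. *Foxn1* was low in D3 organoids and in 2D, with no call between them (adjusted p = 0.23), and was higher at D7 than at D3 (2.97, adjusted p = 4.5e-07). *Nfkb1*, an NF-kB subunit, had 126 and 148 CPM *in vivo*, 55.1 and 63.3 in 2D, 223 and 217 at D3 and 160 and 136 at D7. It was lowest in 2D, with a log2 fold change of 1.89 for D3 organoids over 2D (adjusted p = 1.1e-07). *Rela*, the partner of that subunit, ranged from 45.8 to 78.01 CPM and was highest in 2D. The NF-kB genes *Nfkb2* and *Relb* were lowest at D3, with means of 20.3 and 7.68 CPM, so that the NF-kB genes did not move together. Some of the genes above share exon bases with a counted gene on the opposite strand, among them *Irf1* with *Gm12216* (619 bases), *Jak1* with *Raver2* (1950 bases), *Adam17* with *Iah1* (341 bases) and *Stat3* with *Stat5a* (142 bases).

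**Figure D4:**
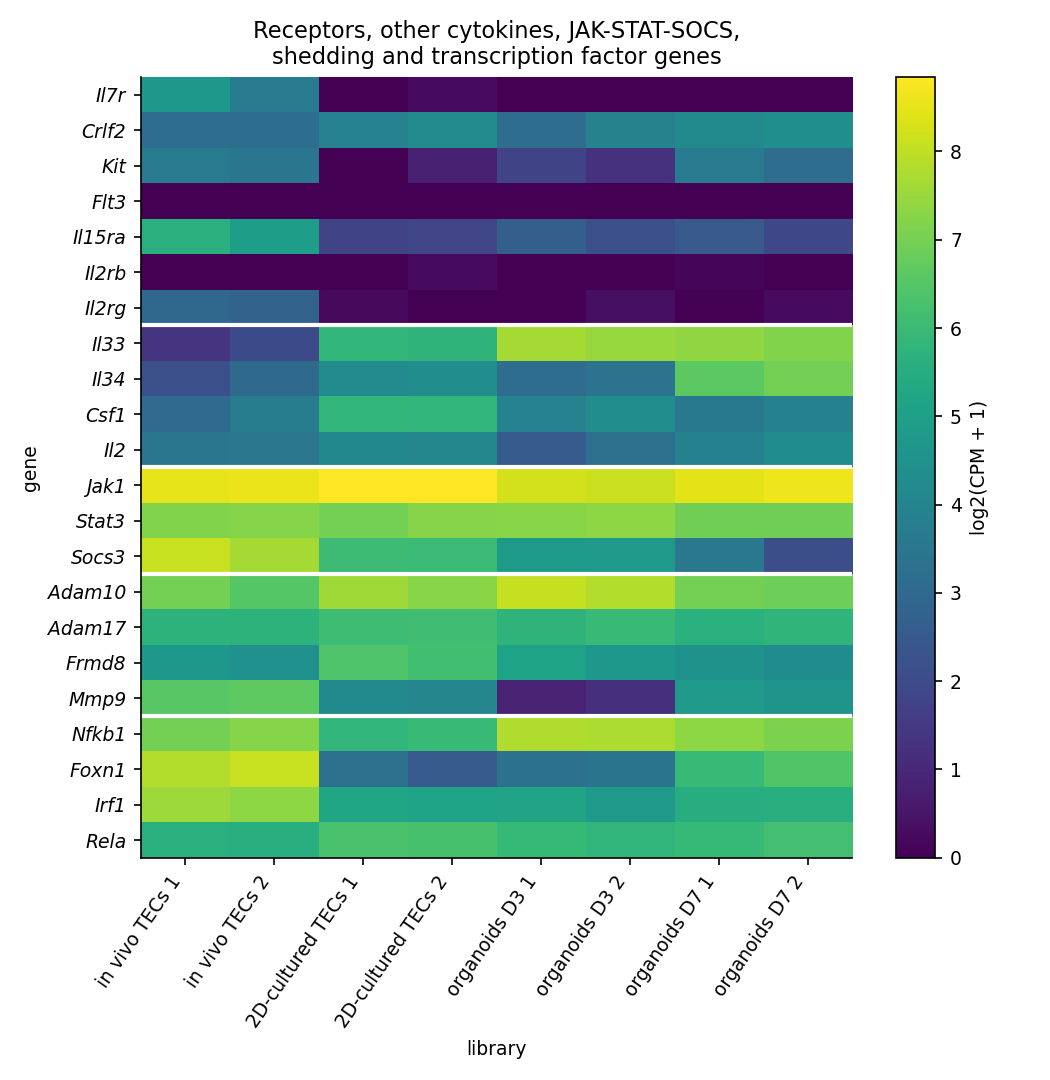
Heat map of log2(CPM + 1) for 22 genes (rows, in 5 blocks from the top: receptors, other cytokines, JAK-STAT-SOCS genes, shedding genes and transcription factors) in the 8 libraries (columns). *Irf1* is brightest *in vivo*, *Il33* is bright in all cultures, and *Mmp9* is darkest in D3 organoids.

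The genes whose levels most resembled each cytokine gene were ranked by Pearson's r over the 8 libraries on log2(CPM + 1), among genes with a mean of at least 10 CPM. The 8 points fall into 4 groups and share their culture conditions, so these values are descriptions. For *Il7* the top genes were *Tmem169*, *Spock2* and *Hhip* (r from 0.989 to 0.992), and for *Kitl* they were *Zcwpw1*, *Zfp760* and *Gga2* (0.996 to 0.998). *Flt3l* was most like *Pds5b*, *Epb41l3* and *Igsf3* (0.993 to 0.995). *Il15* was most like the thymocyte marker *Rag1* (0.982), then *Snx30* and the cortical TEC marker *Ly75* (0.981). *Rag1* had 287 and 133 CPM *in vivo*. *Tslp* was most like *Plek2*, *Cep70* and *Cd276* (0.973 to 0.980). *Plek2* shares 1607 exon bases with *Eif2s1* on the opposite strand, and *Cd276* (B7-H3) had means of 5.28 CPM *in vivo*, 58.5 in 2D, 33.7 at D3 and 15.4 at D7. Ranked by Spearman's rho instead, at least 1 gene reached 1 for each of *Il7*, *Kitl*, *Flt3l* and *Tslp*, and of all the genes named here only *Pds5b* stayed among the leading 3.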

How the data were processed

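RNA from 8 samples of TECs was measured as QuantSeq 3′ libraries on a NextSeq 500. The authors aligned reads to GRCm39 with STAR and deposited raw counts per Ensembl gene for each library. The annotation release, the strand setting and the handling of multi-mapping reads are not given in the sources used here. The submitters' notes name R 4.1.2, edgeR and limma.

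IDs were matched to GENCODE M39 (56236 of 56923). From the deposited counts, genes that reached 1 CPM in 3 or more libraries were kept, and 6 comparisons of the 4 groups were tested in R 4.3.3 with edgeR 4.0.16 (TMM factors, glmQLFit and glmQLFTest, group as the only term). The authors' limma-voom was an alternative (limma 3.58.1), as were DESeq2 1.42.0, other scalings and filters, a replicate block and leaving out each library. SDs are over the 2 libraries of a group, Poisson intervals and limits of 3 counts cover counting error only, and 95% intervals of fold changes come from the SE and the degrees of freedom of the fit. No 50-base word near the transcript ends of the 5 genes was shared with another gene. Plots were drawn in Python 3.11.15 with matplotlib 3.10.9.

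The text names the 5 genes, all receptors, the 4 most abundant tested genes of each other list, genes that overlap a member and the 3 genes most like each member. Of the genes this rule names, 1 is not reported here. Markers and other genes appear as examples. Members, lists and tests were chosen with earlier results of these data known.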

Additional observations from a re-analysis of the deposited data

How the results depend on the processing

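Over 30 values (5 cytokine genes in 6 comparisons), 459 of 492 recomputed values kept their direction and their side of the threshold, 9 lost a call, 10 gained one and 14 changed sign, the last all uncalled in both fits. *Flt3l* for D7 organoids over 2D lost its call with DESeq2's Wald test (1.40), limma-voom (1.38) and the 4 libraries of the 2 groups alone (1.38). *Tslp* for D7 organoids over 2D gained one with DESeq2's size factors (-1.76), no filter (-1.76), DESeq2's Wald test (-1.77), limma-voom (-1.69), the 4 libraries alone (-1.78) and ribosomal RNA genes left out (-1.77), and *Tslp* for *in vivo* TECs over D7 organoids did with no filter (-1.94). *Kitl* for D7 over D3 organoids changed sign with DESeq2's size factors (-0.032), library size alone (-0.050), no filter (-0.055), DESeq2's Wald test (-0.032), the 4 libraries alone (-0.043) and ribosomal RNA genes left out (-0.061), as did *Il15* for D7 organoids over 2D with library size alone (0.13) and limma-voom (0.060). The cause was not tested.

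With 1 library left out, the other library of its group is assumed to vary like the other groups. The log2 fold change then ranged from 0.55 to 0.73 for *Il7* and from -1.95 to 0.044 for *Il15* in D3 organoids over 2D, from 1.24 to 1.62 for *Flt3l*, -0.65 to 0.81 for *Il15* and -2.05 to -1.31 for *Tslp* in D7 organoids over 2D, from 0.51 to 0.92 for *Il7* and -0.096 to 0.073 for *Kitl* in D7 over D3 organoids, and from -6.83 to -1.02 for *Tslp* in *in vivo* TECs over D7 organoids. Genes called ranged from 3016 to 5030 for *in vivo* TECs against D7 organoids (5042 with all libraries), lowest without D7 replicate 2, and from 1183 to 3418 for D7 against D3 organoids (3012 with all), at 1183 without D7 replicate 2 and 1660 without D3 replicate 1.

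Library size alone raised the median of all genes to 0.24, 0.29 and 0.31 for *in vivo* TECs, D3 and D7 organoids over 2D, from 0.06, 0.03 and 0.10, and the share of called genes that were lower in 2D to 63.1%, 67.2% and 65.2%, from 52.2%, 50.3% and 53.7%. A mean of at least 10 CPM left out *Flt3l*, *Il15* and *Tslp*, which have no value there. Of 1020 counts of called pathway genes 113 moved by over 1.5 times, and of 1202 values for called pathway genes 75 lost the call and 0 changed sign.

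No label used here says that equal replicate numbers share a source. Deviations of equal numbers correlated between 0.038 and 0.15 across genes. Some pairs of groups were above 0.1 and others below it, and the samples were not treated as paired. These correlations do not settle whether equal numbers share a source. With the replicate block more genes were called in each of the 6 comparisons, from 3012 to 3587 for D7 against D3 organoids, and no call on the 5 genes changed.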

Other observations

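Among cytokine genes outside the named ones, chosen here after their values were seen, several were seen mainly in 2D-cultured TECs. *Il23a*, a subunit of IL-23, had 35.5 and 27.7 CPM in 2D, 2.96 and 1.83 *in vivo*, 2.87 and 0.280 in D3 organoids and 0 and 0.395 in D7 organoids. *Lif*, a cytokine of the IL-6 family, had 8.37 and 4.64 CPM in 2D and at most 1.86 in any other library. *Il16*, a chemoattractant made by lymphocytes among others, had 10.8 and 4.23 CPM *in vivo* and at most 0.743 in the cultures.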
